A study of Homo sapiens with 35 samples.

Results

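The constitutive 26S proteasome was followed at the transcript level in the cell line RPMI-8226, which derives from multiple myeloma, a cancer of plasma cells. The 32 genes were chosen by symbol as the standard subunits of the 20S core and the 19S cap, and the protein-coding entry of each was used. These are 32 of the 17999 protein-coding entries that held a count, and all 32 did. They comprise 7 genes of the alpha ring (PSMA1 to PSMA7), 7 of the beta ring (PSMB1 to PSMB7), 6 ATPases of the base (PSMC1 to PSMC6), 4 further base subunits (PSMD1, PSMD2, PSMD4 and ADRM1) and 8 lid subunits (PSMD3, PSMD6, PSMD7, PSMD8, PSMD11, PSMD12, PSMD13 and PSMD14). The cells received a 1 h pulse of 750 nM carfilzomib, an irreversible inhibitor of the proteasome's chymotrypsin-like site. Libraries were made from day 0 and from 6 time points after the pulse (days 1, 2, 4, 6, 8 and 10), with 5 per time point and 35 in all. The sample labels list the treatment for day 0 as well, whereas the study's methods place the day 0 collection before the drug, and day 0 was taken as untreated. The study's methods describe the libraries of a day as subcultures split from 1 expanded culture, whereas a legend calls them independent experiments, so p-values may measure only the spread between subcultures. Cells of the later days had been washed, kept in medium without the drug and given fresh medium every 48 h, and there was no untreated culture at those days, so time in culture and time after the pulse cannot be told apart.

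The 20S core is a barrel of stacked alpha and beta rings. The alpha ring forms the gate, and the beta ring carries the proteolytic sites of PSMB6 (caspase-like), PSMB7 (trypsin-like) and PSMB5 (chymotrypsin-like). In the 19S cap, the base ATPases unfold substrates and thread them into the core, PSMD1 and PSMD2 are scaffolds, PSMD4 and ADRM1 bind ubiquitin chains, and the lid, through PSMD14, removes ubiquitin. When proteasome activity drops, mammalian cells are known to raise transcription of the subunit genes through NRF1 (the product of NFE2L1), which binds antioxidant response elements (AREs). Plasma cells, from which myeloma derives, depend strongly on this degradation because they secrete large amounts of antibody.

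The 6 promoters below belong to the gene with the highest day 1 rise in each of the 5 groups, followed by that of PSMD7, the gene with the lowest rise of all. Each is the 250 bases before the RefSeq gene start (GRCh38.p14), read 5′ to 3′ on the gene's strand. Of the 2 entries for PSMD2, the one at the start of its canonical transcript is shown. Capitals mark the ARE core TGACNNNGC and the CCAAT box, each searched on both strands.
PSMA3 (chr14:58244593-58244842, plus strand): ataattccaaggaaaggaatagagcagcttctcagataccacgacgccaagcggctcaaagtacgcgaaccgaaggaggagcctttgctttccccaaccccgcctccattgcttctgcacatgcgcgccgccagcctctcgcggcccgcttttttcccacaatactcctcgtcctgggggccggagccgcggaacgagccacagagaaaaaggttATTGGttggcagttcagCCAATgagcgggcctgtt
PSMB3 (chr17:38752491-38752740, plus strand): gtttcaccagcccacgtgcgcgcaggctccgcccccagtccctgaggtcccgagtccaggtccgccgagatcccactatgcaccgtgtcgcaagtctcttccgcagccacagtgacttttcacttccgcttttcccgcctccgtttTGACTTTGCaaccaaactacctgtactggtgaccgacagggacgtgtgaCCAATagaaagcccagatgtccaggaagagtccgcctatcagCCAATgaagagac
PSMC4 (chr19:39970915-39971164, plus strand): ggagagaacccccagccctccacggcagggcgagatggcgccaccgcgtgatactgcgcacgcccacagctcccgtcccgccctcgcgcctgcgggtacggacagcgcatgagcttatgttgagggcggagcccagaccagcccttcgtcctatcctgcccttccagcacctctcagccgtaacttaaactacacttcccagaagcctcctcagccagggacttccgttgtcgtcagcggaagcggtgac
PSMD2 (chr3:184298991-184299240, plus strand): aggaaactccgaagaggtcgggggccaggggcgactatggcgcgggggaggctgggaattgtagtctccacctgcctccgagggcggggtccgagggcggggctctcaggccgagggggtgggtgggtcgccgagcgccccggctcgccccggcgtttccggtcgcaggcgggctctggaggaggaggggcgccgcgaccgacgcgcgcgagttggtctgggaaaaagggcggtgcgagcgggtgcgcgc
PSMD14 (chr2:161308175-161308424, plus strand): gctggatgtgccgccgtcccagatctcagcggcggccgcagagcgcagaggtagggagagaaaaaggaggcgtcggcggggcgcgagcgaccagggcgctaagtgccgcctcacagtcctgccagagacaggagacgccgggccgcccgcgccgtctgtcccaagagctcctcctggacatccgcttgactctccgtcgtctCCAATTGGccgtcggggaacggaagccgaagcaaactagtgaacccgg
PSMD7 (chr16:74296564-74296813, plus strand): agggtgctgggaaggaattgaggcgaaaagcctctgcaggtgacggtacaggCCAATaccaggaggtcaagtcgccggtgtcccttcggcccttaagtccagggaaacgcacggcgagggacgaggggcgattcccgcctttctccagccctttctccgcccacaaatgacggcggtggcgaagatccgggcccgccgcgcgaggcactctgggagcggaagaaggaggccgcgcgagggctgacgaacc
Of these 6, the promoter of PSMB3 alone held an ARE core within the printed bases, and those of PSMC4 and PSMD2, the base genes that head their groups, held neither motif there. The table had promoters for 27 of the 32 genes (not PSMA7, PSMB1, PSMB6, PSMB7 and PSMD4). In the full window of 300 bases, which adds 50 bases after the start, 8 of the 27 genes held the ARE core, compared with 13.3% of all 35116 promoters and 18.5% of the 13348 tested gene symbols in the table. PSMC4 and PSMD1 were among the 8. PSMD1 rose on day 1 as much as PSMD2 (log2 fold change 3.05 for both, SE 0.07), which was not among them. The median day 1 log2 fold change was 2.06 for the 8 genes with the core and 1.91 for the 19 without it. The CCAAT box, found in 34.6% of all promoters and in 42.4% of the tested symbols, was present in 16 of the 27, with a median day 1 log2 fold change of 1.67 against 2.04 for the 11 without it. These are matches of letters in a short window and were not tested for binding.

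The ARE core matches of 7 genes are shown with 10 bases on each side, and the core is in capitals. That of PSMD1 lay too near the end of the window for this.
PSMA4 (chr15:78540650-78540678, plus strand): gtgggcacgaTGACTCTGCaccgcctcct
PSMB3 (chr17:38752627-38752655, plus strand): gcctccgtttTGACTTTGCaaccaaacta
PSMC4 (chr19:39971182-39971210, plus strand): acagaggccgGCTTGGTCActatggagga
PSMC5 (chr17:63827654-63827682, plus strand): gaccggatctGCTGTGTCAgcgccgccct
ADRM1 (chr20:62302749-62302777, plus strand): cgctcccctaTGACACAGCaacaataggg
PSMD3 (chr17:39980760-39980788, plus strand): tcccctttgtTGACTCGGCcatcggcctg
PSMD12 (chr17:67366724-67366752, minus strand): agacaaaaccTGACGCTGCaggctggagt
The matches of PSMC4 and PSMC5 read as the reverse complement, and that of PSMC4 started 27 bases after the gene start. The day 1 rises of these 7 genes ran from PSMD12 (day 1 log2 fold change 1.35) to PSMC4 (3.47).

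Libraries held 6519392 to 10962890 counts (median 7643975). Counts for the 32 entries lay between 168 and 8015 per library, apart from PSMA5 (2 to 57) and PSMD13 (50 to 480). Levels of the coding entries are given in CPM relative to the protein-coding counts of a library, scaled by trimmed mean of M-values (TMM) factors, which lay between 0.929 and 1.08. The 10 plasma cell markers were all present, with summed levels of 6623 to 7534 CPM on day 0 and 2932 to 3270 CPM on day 1. JCHAIN was the highest of the 10 on every day, with day means between 1437 and 5561 CPM, so the sum follows this gene most. The 5 T cell markers summed to 4.04 to 6.01 CPM on day 0 and 0.882 to 1.69 on day 1, with CD3D and CD2 at or near 0. Of 5 monocyte markers 4 were measured, at 103 to 125 CPM on day 0 and 70.1 to 92.3 on day 1, nearly all of it CD68, and LYZ was at or near 0. Of 5 fibroblast and epithelial markers 4 were measured, at 87.8 to 109 CPM on day 0 and 89.7 to 103 on day 1, mostly EPCAM and KRT8. The mitochondrially encoded share of counts was 7.34% to 10.6% on day 0 and 5.42% to 7.16% on day 1, and the part of these shifts in the results below was not tested.

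To follow the response during stress buildup, day 1 was first compared with day 0. All 32 subunit transcripts rose on day 1 (edgeR quasi-likelihood test, Q ≤ 0.05 after Benjamini–Hochberg adjustment over all 17999 entries), whereas 25.4% of all tested entries were higher and 27.3% were lower. The median log2 fold change was 1.904, compared with −0.061 over all entries. A fold change above 2 was reached by 31 of the 32, against 7.27% of all entries, and the exception was the lid gene PSMD7. The 32 entries together rose from 2608 ± 134 CPM (SD, n = 5) on day 0, with libraries between 2398.5 and 2743.5, to 10339 ± 396 on day 1, with libraries between 9848 and 10953. No library of day 1 overlapped those of day 0. In bulk RNA, a change in the amount of RNA per cell and a change in the mix of surviving cells cannot be told apart.

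**Figure D1:**
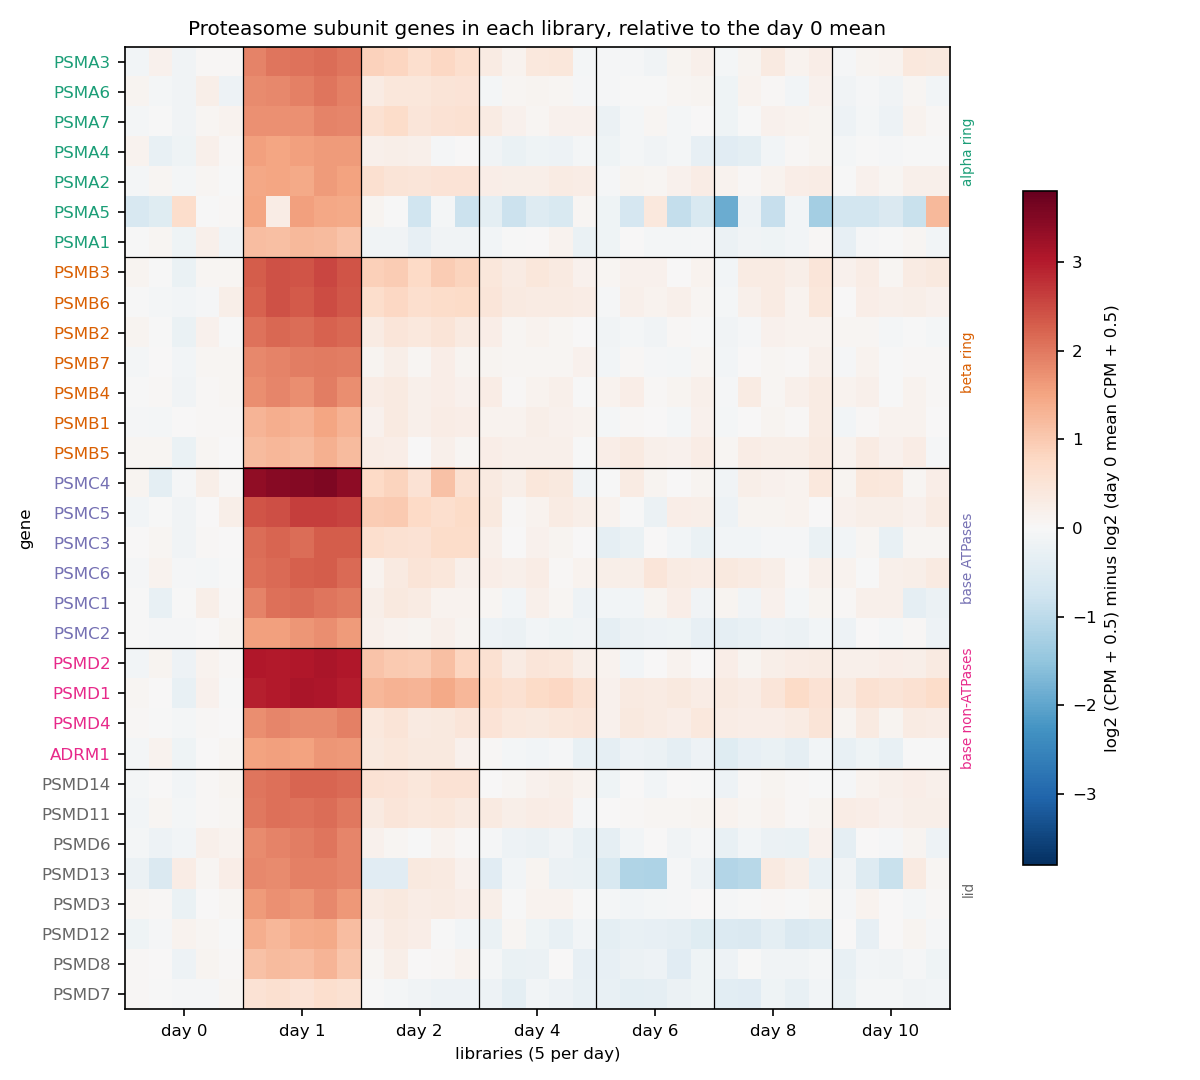
Heat map of the 32 subunit genes (rows, grouped by subcomplex and ordered by day 1 rise) in the 35 libraries (columns, 5 per day), with colour giving log2 (CPM + 0.5) minus the log2 of the day 0 mean CPM + 0.5. Every gene has its highest mean on day 1, when PSMC4 (log2 fold change 3.47) has the deepest colour and PSMD7 (0.58) the palest.

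The rise was unequal between subcomplexes. The base non-ATPases had the highest median log2 fold change on day 1 (2.44), followed by the base ATPases (2.21), the beta ring (1.92), the lid (1.80) and the alpha ring (1.58). Within single libraries, which makes the comparison independent of scaling, the mean log2 level of the base ATPases relative to the lid was 0.75 ± 0.04 (SD, n = 5) higher on day 1 than on day 0, with day 1 libraries between 0.70 and 0.80 and day 0 libraries between −0.03 and 0.05. The base non-ATPases gained 0.78 ± 0.05 on the lid in the same way. The 18 genes of the cap gained 0.26 ± 0.03 on the 14 genes of the core. These within-library values are given as a description. Which group came last rested on the summary used. By means the lid was lowest (1.60, against 1.64 for the alpha ring), and with all transcript biotypes of a symbol summed the median of the lid (1.71) was below that of the alpha ring (1.77). Without day 0 replicate 3, the median of the alpha ring was 1.76.

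**Figure D2:**
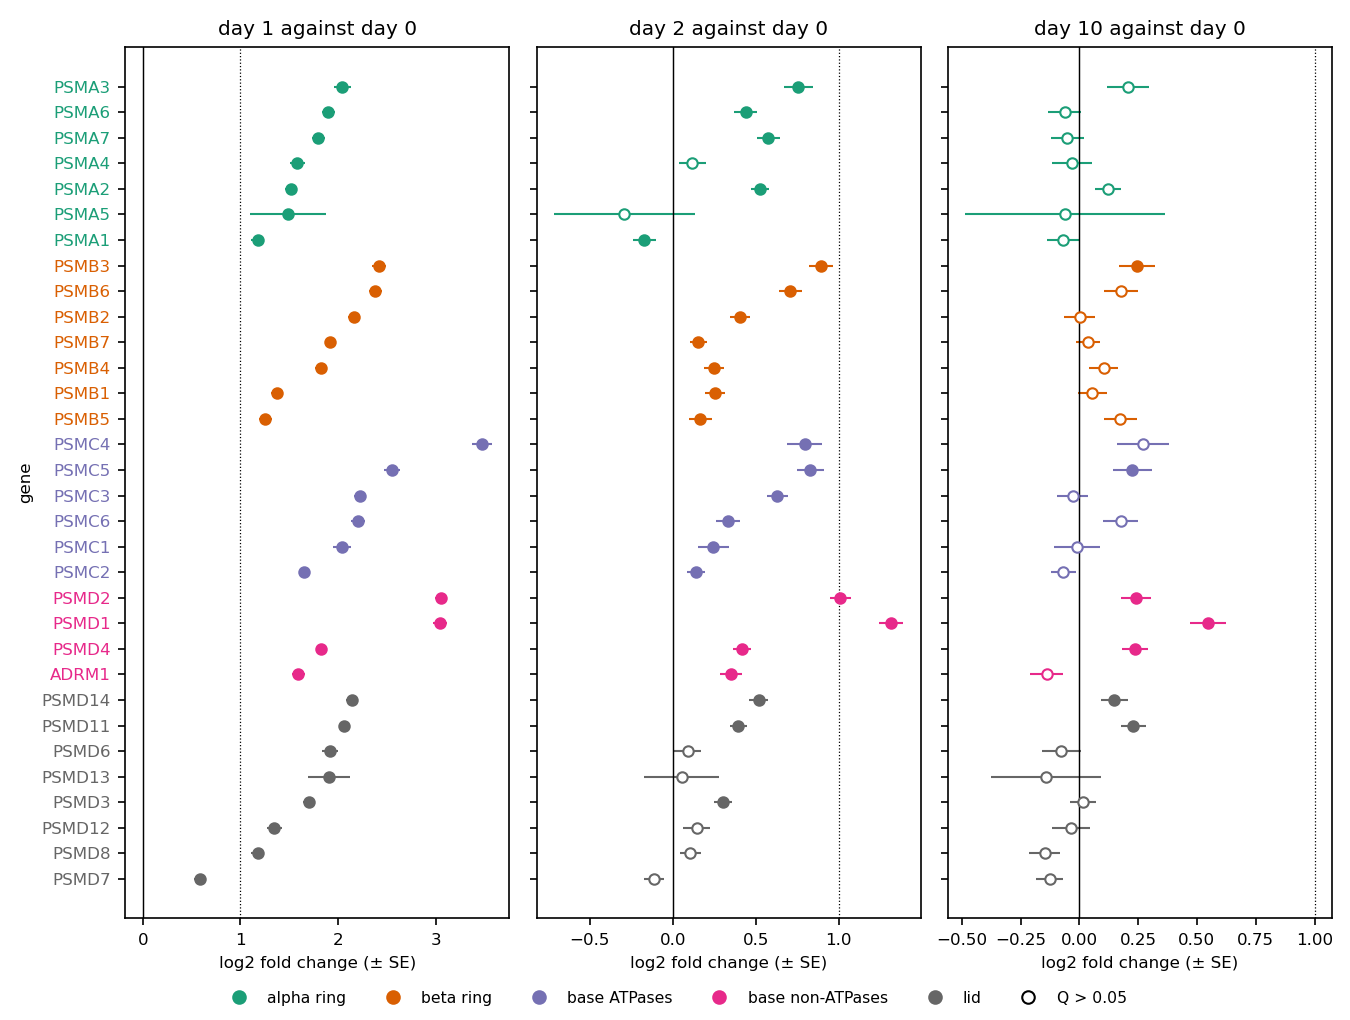
Log2 fold change (± SE) of each of the 32 genes on days 1, 2 and 10 against day 0, coloured by subcomplex, with open circles for Q > 0.05 and a dotted line at 2-fold. On day 1 all points are filled and PSMD7 (0.58) alone lies left of the dotted line, whereas on day 10 only 7 points are filled, PSMD1 (0.55) being the rightmost.

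Among the coding entries, the base showed the widest range of day 1 rises, and its upper end was the coding entry of PSMC4. PSMC4, an ATPase of the base (chromosome 19, 39971165 to 39981764, plus strand, GRCh38), was at 37.4, 26.7, 33.8, 40.7 and 36.2 CPM in the day 0 libraries and at 364, 387, 394, 414 and 377 CPM on day 1. The groups did not overlap, and the log2 fold change of 3.47 (SE 0.10) was the highest of the 32 coding entries. PSMC2, another ATPase, had the smallest rise of that ring, from 107 ± 4.61 CPM (SD, n = 5) to 336 ± 20.0 CPM (log2 fold change 1.65, SE 0.05). The remaining ATPases PSMC5, PSMC3, PSMC6 and PSMC1 lay between them, with log2 fold changes of 2.55, 2.22, 2.20 and 2.04. With all transcript biotypes of a symbol summed, PSMC4 no longer came first. Its libraries then lay at 49.1 to 53.6 CPM on day 0 and at 362 to 406 CPM on day 1. Those of PSMD1 lay at 41.8 to 52.1 CPM and at 372 to 429 CPM.

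PSMD2, a scaffold that receives ubiquitin shuttle factors (chromosome 3, 184299198 to 184309050, plus strand), was at 132, 153, 124, 154 and 145 CPM on day 0 and at 1178, 1138, 1172, 1222 and 1168 CPM on day 1 (log2 fold change 3.05, SE 0.07). PSMD1, the larger scaffold (chromosome 2, 231056845 to 231173116, plus strand), was at 57.1, 54.8, 44.2, 60.1 and 52.7 CPM on day 0 and at 418, 441, 469, 461 and 433 CPM on day 1 (log2 fold change 3.05, SE 0.07). In both genes the days did not overlap, and the rises of the scaffolds differed by less than their standard errors. The ubiquitin receptors rose less, PSMD4 by 1.83 (SE 0.05) and ADRM1 by 1.59 (SE 0.07) on the log2 scale. The day 0 libraries of ADRM1 lay at 58.1 to 71.9 CPM and those of day 1 at 187 to 207 CPM.

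In the lid, PSMD14, the deubiquitinase (chromosome 2, 161308425 to 161411717, plus strand), was at 93.7, 99.3, 92.6, 103 and 108 CPM on day 0 and at 408, 425, 457, 459 and 441 CPM on day 1 (log2 fold change 2.14, SE 0.06). PSMD7, which pairs with PSMD14 in the lid but lacks its catalytic site (chromosome 16, 74296814 to 74306288, plus strand), was at 136, 131, 128, 129 and 141 CPM on day 0 and at 196, 202, 193, 208 and 198 CPM on day 1. These groups did not overlap either, although the log2 fold change was 0.58 (SE 0.06, adjusted p = 8.96e-12 in edgeR). The other 6 lid genes lay between PSMD8 (1.17) and PSMD11 (2.06).

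**Figure D3:**
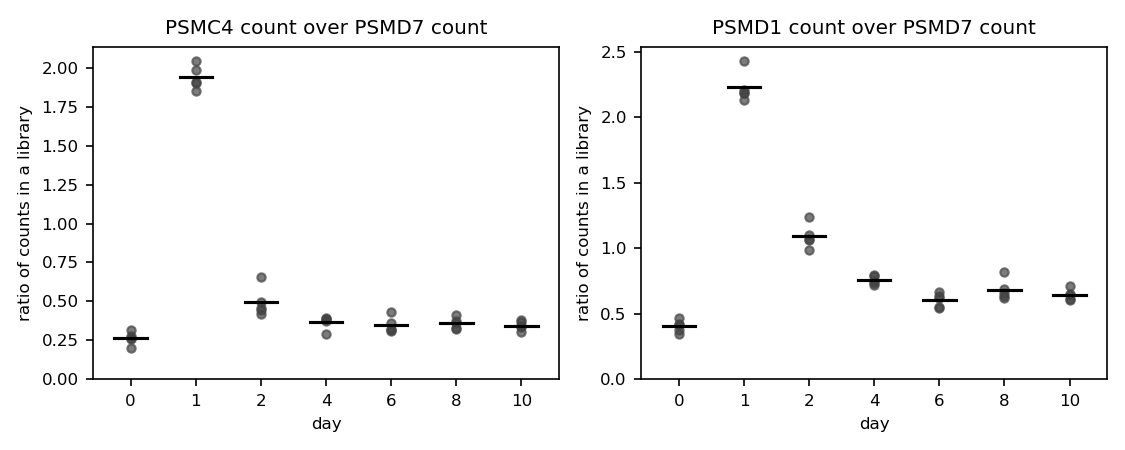
Ratio of 2 protein-coding counts within each library by day, for PSMC4 over PSMD7 (left) and PSMD1 over PSMD7 (right), with points for the 5 libraries and a bar for their mean. Both ratios are highest on day 1 and neither is back within the range of the day 0 libraries on day 10, apart from 1 day 10 library of PSMC4 over PSMD7.

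The ratio of PSMC4 to PSMD7 coding counts illustrates how far coding entries of 1 complex moved apart. It averaged 0.263 ± 0.041 (SD, n = 5) on day 0 and 1.94 ± 0.074 on day 1. On day 10 it was 0.344 ± 0.031, with libraries between 0.300 and 0.377 against 0.203 to 0.316 on day 0. PSMD1 over PSMD7 went from 0.404 ± 0.047 to 2.23 ± 0.118 and stood at 0.644 ± 0.044 on day 10, when every library exceeded every day 0 library. The coding share of PSMC4 counts also moved, from 58.5% on day 0 to 91.5% on day 1 and 76.4% on day 10. With biotypes summed, PSMC4 on day 10 (45.1 to 53.9 CPM) overlapped day 0 (49.1 to 53.6 CPM). Summed PSMD1 on day 10 (61.2 to 77.9 CPM) stayed above day 0 (41.8 to 52.1 CPM).

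In the beta ring, the 3 catalytic subunits responded to different extents. PSMB5 (chromosome 14, 23016543 to 23035230, minus strand), which carries the site that carfilzomib binds, had the smallest rise of its ring. It was at 56.7, 56.2, 44.5, 55.7 and 53.9 CPM on day 0 and at 124, 130.0, 123, 136 and 125 CPM on day 1 (log2 fold change 1.26, SE 0.07). The caspase-like subunit PSMB6 was at 47.4, 46.2, 45.0, 46.5 and 56.4 CPM on day 0 and at 230.2, 259, 247, 272 and 248 CPM on day 1 (2.38, SE 0.07). The trypsin-like subunit PSMB7 was at 138, 145, 135, 151 and 153 CPM on day 0 and at 513, 535, 554, 562 and 554 CPM on day 1 (1.92, SE 0.05). All 3 were higher in every day 1 library than in any day 0 library. PSMB3, a structural subunit (chromosome 17, 38752741 to 38764225, plus strand), had the largest rise of the ring, from 81.0, 74.9, 63.3, 79.6 and 78.9 CPM to 373, 407, 401, 445 and 397 CPM (2.42, SE 0.07).

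The alpha ring had the lowest median rise of the coding entries, though not the lowest mean. PSMA3 (chromosome 14, 58244843 to 58272012, plus strand), one of the gate subunits, was at 39.8, 47.9, 38.8, 43.9 and 44.1 CPM on day 0 and at 160.2, 179, 181, 187 and 177 CPM on day 1 (log2 fold change 2.04, SE 0.09). PSMA1 (chromosome 11, 14504874 to 14643635, minus strand) was at 76.2, 81.7, 69.2, 88.8 and 70.8 CPM on day 0 and at 173, 173, 183, 179 and 166 CPM on day 1 (1.18, SE 0.07). Neither gene overlapped between the days. PSMA5 had the widest error of all 32 genes (1.49, SE 0.39), and its protein-coding entry held few counts. In CPM it was at 1.55, 1.75, 4.47, 2.61 and 2.70 on day 0 and at 8.38, 3.31, 8.64, 8.06 and 7.95 on day 1, where replicate 2 alone lay below a day 0 library.

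To compare levels between genes, CPM were divided by the length of the canonical transcript in GENCODE release 44, which may differ from the transcripts that held the reads. Before treatment, the most abundant of the 32 genes on this scale were PSMB4 (199 ± 10.5 CPM per kb, SD, n = 5), PSMB7 (147 ± 8.08) and PSMB1 (123 ± 4.24), all of the beta ring. PSMD7 ranked 7 of 32 on day 0 (81.6 ± 3.39 CPM per kb) and PSMC4 ranked 25 (19.92 ± 2.997). On day 1, PSMC4 (221 ± 10.6 CPM per kb) ranked 13 and PSMD7 (122 ± 3.63) ranked 23. The levels per kb of PSMD7, PSMB5 (122 ± 5.32), PSMD8 (124 ± 7.89) and PSMC2 (124 ± 7.39) did not differ beyond their spread on that day. Of the catalytic subunits, PSMB5 (51.1 ± 4.86) and PSMB6 (58.6 ± 5.59) were close on day 0, whereas PSMB6 (305 ± 18.9) exceeded PSMB5 on day 1 by more than the spread.

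By day 2, every transcript had dropped again: 32 of 32 were lower than on day 1, against 19.4% of all entries. Of the log2 rise on day 1, a median of 18.7% was left. Compared with day 0, 24 transcripts were still higher (background 23.2%) and 1 was lower (background 24.4%). The 24 included all 7 of the beta ring, all 10 of the base, 4 of 7 in the alpha ring and 3 of 8 in the lid. Summed over the 32 genes, the level was 3492 ± 112 CPM.

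**Figure D4:**
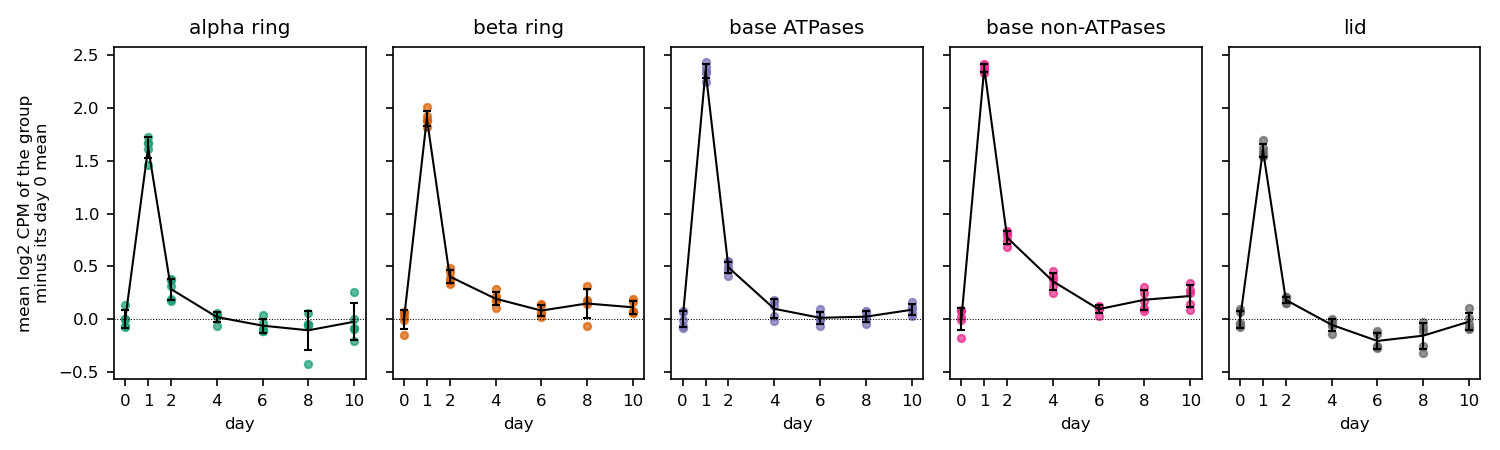
Mean log2 CPM of the genes in each subcomplex minus its day 0 mean, by day, with a point per library and a line through the mean of the 5 libraries (± SD). All panels peak on day 1, the base non-ATPases keep the highest values on days 2 and 4, and the lid lies below its day 0 mean on day 6.

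PSMD1 and PSMD2 were the coding entries that stayed above 2-fold on day 2. Over all 17999 entries, 2746 passed the test with a change beyond 2-fold in either direction on that day. PSMD1 stood at 129, 134, 131, 145 and 129 CPM, a log2 fold change of 1.32 (SE 0.07) that left 43.2% of its day 1 rise, the highest share of the 32. PSMD2 stood at 1.01 (SE 0.06), within its standard error of 2-fold. With biotypes summed, PSMD2 lay at 264 to 308 CPM against 148 to 173 CPM on day 0, below 2-fold between the means. PSMC4, whose coding entry had the highest rise, fell by 2.68 on the log2 scale (SE 0.09) between days 1 and 2. At the other end, PSMA1 was lower than on day 0 (fell by 0.17 on the log2 scale, SE 0.07), at 69.9, 70.1, 62.4, 71.1 and 70.5 CPM on day 2, which overlapped its day 0 libraries. This call was lost without day 0 replicate 2, day 0 replicate 4 or day 2 replicate 3. PSMA5 (−0.29, SE 0.42) had the lowest share of the rise left and PSMD7 (−0.11, SE 0.06) the next, and neither passed the test.

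On the later days most subunits no longer passed the test against day 0, and the number uncalled among the 32 was 17, 22, 19 and 25 at the last 4 time points. Most entries of the whole series were uncalled as well, with 10956, 11790, 11375 and 12254 of 17999 on the same days. Day 4 had 12 transcripts higher and 3 lower than day 0 (background 19% and 20.1%), and 21 had dropped further since day 2 (background 16.7%). Day 6 had 4 higher and 6 lower (background 17.5% and 17%), shares near those of all entries, with 8 lower than on day 4 (background 5.98%). This last count ran from 4 without day 4 replicate 1 to 15 without day 6 replicate 5, and DESeq2 gave 17. On day 8, 9 were higher and 4 lower (background 18.2% and 18.6%). Between days 6 and 8 no transcript passed the test in edgeR in either direction (background 1.03% higher and 1.53% lower), with 3 higher and 0 lower at an unadjusted p under 0.05 and 1 higher in DESeq2, PSMD2. PSMC2 and PSMD12 were higher on day 10 than on day 8 (background 5.08%) and none was lower in edgeR or DESeq2, also at an unadjusted p under 0.05 (background 4.97%).

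The transcripts that fell below day 0 on at least 1 of days 2 to 10 were PSMA1, PSMC2, PSMC3, ADRM1, PSMD7, PSMD8 and PSMD12. These are 7 of 32, a share below the 33.5% of all entries that met the same criterion. PSMD12, a lid subunit, was lowest on day 8, at 34.6, 33.8, 38.3, 34.0 and 34.9 CPM, and all 5 libraries lay below the lowest day 0 library (44.2 CPM). Its log2 fold change of −0.50 (SE 0.08) on day 8 was followed by −0.034 (SE 0.08) on day 10, when it had risen by 0.46 (SE 0.08, adjusted p = 8.64e-05 in edgeR) since day 8. The coding share of its counts was 54.3% on day 8, against 64.0% on day 0, and with biotypes summed the day 8 libraries (53.0 to 63.9 CPM) overlapped those of day 0 (58.3 to 75.4 CPM), at a log2 fold change of −0.20 (SE 0.06) that still passed the test. PSMD7 was lower on days 4, 6 and 8, most on day 6 (−0.28, SE 0.06). PSMC2, PSMC3 and ADRM1 were higher than day 0 on day 2 and lower on a later day, with the lowest log2 fold changes at −0.25, −0.19 and −0.29. The 3 lower calls of day 4 were 1 without day 0 replicate 5 or day 4 replicate 2, and 0 without scaling factors, when the median of well-covered entries moved from −0.01 to 0.11 on that day.

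At the end of the observation period, 7 of the 32 transcripts were still above day 0 (background 16.1%): PSMD1, PSMB3, PSMD2, PSMD4, PSMD11, PSMC5 and PSMD14. None was lower in edgeR or DESeq2, with 2 at an unadjusted p under 0.05 (background 15.8%). The share of 7 in 32 was near that of all entries, and the count was 4 without day 0 replicate 3, 11 without day 0 replicate 2, 12 without day 10 replicate 1 and 14 without scaling factors. PSMD1 had the largest rise. It stood at 68.4, 80.8, 75.6, 79.8 and 88.1 CPM, every library above the highest of day 0 (60.1 CPM), with a log2 fold change of 0.55 (SE 0.08, adjusted p = 1.57e-07 in edgeR). PSMB3 stood at 79.6 to 97.4 CPM against 63.3 to 81.0 on day 0 (log2 fold change 0.25, SE 0.08). PSMD2 stood at 161 to 181 CPM against 124 to 154 on day 0 (0.24, SE 0.06). The day 10 libraries of PSMB3 overlapped those of day 0 and the ones of PSMD2 did not. PSMD1 and PSMD4 were higher than day 0 on all of days 2 to 10, as were 9.19% of all entries, and 11 genes passed the test on none of days 4 to 10, as did 48.9% of all entries. Relative to the lid, the base non-ATPases were still 0.24 ± 0.07 higher within libraries on day 10 (0.18 to 0.33, against −0.14 to 0.15 on day 0), and no day 10 library overlapped those of day 0. Not all genes of that group shared this: ADRM1 had a log2 fold change of −0.14 (SE 0.07) on day 10 and did not pass the test.

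The deposited table splits each gene symbol by transcript biotype, so the noncoding transcripts of the 32 genes were examined alongside. For these entries, CPM are relative to the counts of all biotypes. There were 57 entries for retained introns, nonsense-mediated decay (NMD) and processed transcripts (transcripts without an open reading frame), and on day 1, 22 were higher and 1 was lower than on day 0. Over all entries other than protein coding, 3.45% were higher and 9.02% lower. By biotype, 9 of 24 retained-intron entries rose and 1 fell, that of PSMD8 (background 4.49% and 16.8%), 6 of 18 NMD entries rose (background 6.45%) and 7 of 15 processed-transcript entries rose (background 4.38%). The fall of the PSMD8 entry was lost under several alternatives.

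Summed retained-intron and coding entries both fell after day 1, but to different sides of day 0 on day 2. On day 2, when 24 of the 32 coding entries were above day 0, 13 of the 24 retained-intron entries were below it and 1 was above (background 15.9% lower). On day 10, 6 of the 24 were lower (background 7.68%). Summed over the 24 genes that have both, retained-intron entries started at 252 ± 15.5 CPM (SD, n = 5), and reached 453 ± 35.8 on day 1, 164 ± 13.6 by day 2 and 183 ± 22.0 by day 10. The coding entries of the same genes were at 1476 ± 119, 7119 ± 484, 2286 ± 121 and 1667 ± 97.5 CPM. The ratio of coding to retained-intron counts was thus 5.88 ± 0.77 on day 0 and 15.8 ± 2.06 on day 1. It did not go back: on day 10 it was 9.29 ± 1.69, and the lowest day 10 library (7.67) lay above the highest of day 0 (6.75).

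**Figure D5:**
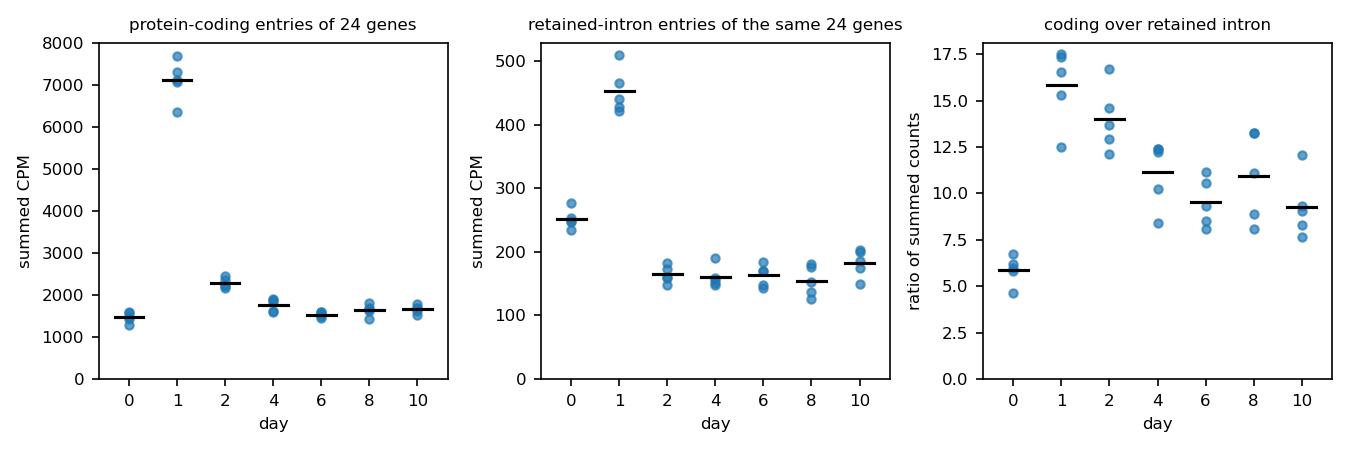
Summed CPM of the protein-coding entries (left) and of the retained-intron entries (middle) of the 24 genes that have both, and the ratio of the 2 sums (right), by day, with a point per library and a bar for the mean. Retained-intron sums are lower on every day from 2 to 10 than on day 0, and the ratio of every later library exceeds that of every day 0 library.

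Such a shift was not limited to the proteasome. The coding share of a symbol's counts was higher on day 1 than on day 0 for 27 of the 32 genes (84.4%) and for 65.6% of the 10136 well-covered symbols with another biotype. On day 10 the corresponding figures were 28 genes (87.5%) and 62.0%. Over all counts of the 32 genes, the coding share was 81.5% ± 1.71 on day 0, 88.6% ± 0.51 on day 1 and 85.5% ± 0.73 on day 10.

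The base ATPases PSMC4 and PSMC5 had the largest day 1 gains in coding share of the 32 genes. The median coding share of the 32 went from 88.9% on day 0 to 93.7% on day 1. The retained-intron entry of PSMC4 was at 18.5 ± 3.47 CPM on day 0, 31.0 ± 3.48 on day 1 and 10.5 ± 3.64 on day 10, while the coding share of the gene's counts went from 58.5% on day 0 to 91.5% on day 1. The retained-intron entry of PSMC5 did not pass the test on day 1 (log2 fold change −0.0071, SE 0.19), while its coding entry rose by 2.55. On day 10 that retained-intron entry was lower (log2 fold change −1.32, SE 0.20), at 8.24 ± 1.17 CPM against 20.6 ± 4.49 on day 0. With all biotypes of a symbol summed, the day 1 log2 fold change was 2.91 for PSMC4 and 2.14 for PSMC5. On day 10, the coding entry of PSMC5 was higher than on day 0 (0.23, SE 0.08), whereas its summed counts had a log2 fold change of −0.059 (SE 0.06) and did not pass the test. The day 10 calls of PSMD2 and PSMD14 were also lost in the summed counts, that of PSMB5 was gained, and those of PSMB3, PSMD1, PSMD4 and PSMD11 held.

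In 2 genes the coding entry held the smaller part of the counts. For PSMA5, it held 3.06% of the counts over all libraries, and the processed-transcript entry rose on day 1 from 50.4 ± 4.08 to 189 ± 14.1 CPM (log2 fold change 1.91, SE 0.08). For PSMD13, a lid subunit, the coding entry held 22.6%, and the NMD entry rose from 36.7 ± 6.42 to 179 ± 16.0 CPM (2.28, SE 0.12), against 1.91 (SE 0.21) for the coding entry. Summed over biotypes, PSMA5 rose by 1.77 (SE 0.06) and PSMD13 by 1.99 (SE 0.06) on the log2 scale. In GENCODE release 44, 4 of the 32 genes (PSMA1, PSMA2, PSMA6 and PSMC2) share bases on the same strand with another protein-coding gene, and 13 overlap a gene on the opposite strand. The library kit kept strand, but whether the counting used it is not given in the sources used here, so reads in such stretches may have been divided between genes.

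Other genes of the proteasome pathway were counted on day 1 in the same way, against the background of 25.4% higher and 27.3% lower among all entries. Of 4 subunits of the immunoproteasome and thymoproteasome, PSMB8 (0.16, SE 0.06) and PSMB10 (0.29, SE 0.10) passed the test on day 1, both higher on the log2 scale. PSMB11, also among the 4, had a log2 fold change of 0 without a standard error and gave no estimate. Of 9 assembly chaperones, 5 rose and 2 fell. POMP, which guides maturation of the core, rose by 2.14 (SE 0.07), whereas PSMG3 fell by 0.58 on the log2 scale (SE 0.07). Of 5 activators and inhibitors of the core, 4 rose and 1 fell, with log2 fold changes from −0.32 (SE 0.07) for PSME1 to 1.48 (SE 0.11) for PSME4. Of 11 proteasome-associated partners, 10 rose, up to SEM1, a small lid component, at 1.67 (SE 0.07). The exception UCHL5, a deubiquitinase bound by ADRM1, had a log2 fold change of 0.039 (SE 0.05) and did not pass the test. The median was 0.17 for the chaperones, 0.44 for the activators and inhibitors, 0.91 for the partners and 1.904 for the 32 subunits, and no test was made between lists.

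Of 8 measured genes around NRF1 and its processing, 5 rose and 3 fell on day 1, against the same background of 25.4% and 27.3%. UFD1L, which works with VCP and NPLOC4 to extract proteins from the endoplasmic reticulum, rose by 3.42 (SE 0.11) on the log2 scale, VCP by 1.77 (SE 0.07) and NPLOC4 by 1.43 (SE 0.05). DDI2, the protease that activates NRF1, rose by 0.13 (SE 0.05). The transcript of NFE2L1 itself was lower, with a log2 fold change of −1.20 (SE 0.06) on day 1, −2.31 (SE 0.06) on day 2 and −0.98 (SE 0.06) on day 10. SEL1L, part of the machinery for degradation at the endoplasmic reticulum, had the lowest day 1 value of the list (−1.82, SE 0.06).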

How the data were processed

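RNA-seq libraries of RPMI-8226 cells from 7 days were analysed, 5 per day. The authors deposited estimated counts as whole numbers per combination of gene symbol and transcript biotype, which per the study's methods came from Kallisto 0.44.0 (with GC bias adjustment) on a GENCODE transcriptome of GRCh38.p12, read into R with tximport. A GENCODE release later than theirs gave positions and lengths here. Of the protein-coding entries, 17999 held a count and were tested, and 1666 held none and were left out.

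Libraries were grouped by the day in their labels. Comparisons were made against day 0 and between successive time points in edgeR 4.0.16 (R 4.3.3; quasi-likelihood test, TMM factors, day as a factor, all 35 libraries), with Benjamini–Hochberg adjustment over all entries tested and Q ≤ 0.05. Entries of other biotypes were tested in a separate fit. Precision follows from 6519392 to 10962890 counts per library. The script was tested on simulated data. Alternatives were RLE factors, no factors, the filterByExpr filter, DESeq2 1.42.0, the compared days alone, biotypes summed, a replicate block, means in place of medians and leaving out each library.

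The 32 genes and all lists were chosen with earlier results of these data known. Genes were named where they had the largest or smallest day 1 change of a subcomplex, were catalytic, had the largest day 10 changes or the widest error, or kept the largest or smallest share of the rise. PSMD12, PSMC5 and PSMD13 were chosen after their values were seen. Promoter sequences are from RefSeq (GRCh38.p14).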

Additional observations from a re-analysis of the deposited data

Results flagged for a closer look

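In 11 of the 224 groups of 5 libraries formed by the 32 genes and 7 days, 1 library stood apart from the other 4 by Dixon's test at the 95% level, and 11.2 such groups would be expected by chance at 1 in 20. On day 0, the genes with such a library were PSMB5 (lowest, replicate 3, 44.5 CPM, next 53.9), PSMB6 (highest, replicate 5, 56.4 CPM, next 47.4) and PSMD3 (lowest, replicate 3, 127 CPM, next 153). On day 1, the gene with such a library was PSMA5 (lowest, replicate 2, 3.31 CPM, next 7.95). On day 2, the genes with such a library were PSMA1 (lowest, replicate 3, 62.4 CPM, next 69.9), PSMA2 (highest, replicate 1, 151 CPM, next 140.0) and ADRM1 (lowest, replicate 5, 73.5 CPM, next 84.1). On day 8, the genes with such a library were PSMD4 (highest, replicate 5, 211 CPM, next 186) and PSMD12 (highest, replicate 3, 38.3 CPM, next 34.9). On day 10, the genes with such a library were PSMA5 (highest, replicate 5, 6.74 CPM, next 1.61) and PSMD7 (lowest, replicate 1, 112 CPM, next 122). Day 0 replicate 3 was the library that stood apart in PSMB5 and in PSMD3, in both as the lowest. The values of PSMA5 come from few counts.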

How the results depend on the processing

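The day 1 counts (32 higher, 31 of them above 2-fold) and the 32 decreases between days 1 and 2 were the same under every alternative run. Of 192 calls (32 genes on 6 days against day 0), none changed on day 1, and over all days 28 changed without scaling factors, 26 with biotypes summed, 11 with filterByExpr, 8 with the compared days alone, 7 in DESeq2 and 5 with RLE factors. Without factors, the median of well-covered entries moved from 0.01 to 0.12 on day 1 and from 0.00 to 0.13 on day 2, so changes were read relative to it. Counts of genes lower on day 2 (1) became 2 with RLE factors, filterByExpr, DESeq2 and biotypes summed, and 0 without factors and with the compared days alone. Without factors, 20 genes were higher (12) and 0 lower (3) on day 4, 14 were higher on day 10 (7), and 17 were lower on day 6 than on day 4 (8), which was also 17 in DESeq2, 15 with filterByExpr and 16 with biotypes summed. With filterByExpr, 1 gene was higher on day 4 than on day 2 (0), and in DESeq2 1 was higher on day 8 than on day 6 (0). The 2 genes higher on day 10 than on day 8 became 1 with RLE factors, with the compared days alone and with biotypes summed. The 1 other-biotype entry lower on day 1 became 3 with RLE factors and DESeq2, and 2 with filterByExpr and the compared days alone. The cause of these differences was not tested.

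Without factors, median log2 fold changes on day 1 were 2.03 (beta ring), 2.33 (base ATPases), 2.55 (base non-ATPases), 1.92 (lid) and 2.02 (all 32), and on day 2 0.38, 0.61, 0.84, 0.25 and 0.47. With biotypes summed, they were 1.77 (alpha ring, day 1), 2.07 and 0.27 (base ATPases, days 1 and 2) and 0.29 (lid, day 2), and that of the base ATPases on day 10 reversed to −0.042. Means in place of medians gave 0.28 (alpha ring, day 2), 0.40 (beta ring, day 2), 2.36 (base ATPases, day 1) and 1.60 (lid, day 1). Single genes that reversed with biotypes summed were PSMA5 (0.32) and PSMD6 (−0.15) on day 2, PSMC4 (−0.31) and PSMC5 (−0.18) on day 6, PSMC4 (−0.19) on day 8 and PSMC5 (−0.059) on day 10.

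Leaving out 1 library at a time, counts ranged from 0 to 1 (lower on day 2), 1 to 3 (lower on day 4), 4 to 12 (higher on day 10), 0 to 1 (lower on day 10, 1 without day 0 replicate 3 or day 10 replicate 4), 0 to 1 (higher on day 4 than on day 2, 1 without day 4 replicate 5), 4 to 15 (lower on day 6 than on day 4), 0 to 1 (higher on day 8 than on day 6, 1 without day 8 replicate 2), 1 to 3 (higher on day 10 than on day 8) and 0 to 2 (other biotypes lower on day 1). The alpha ring median on day 1 ranged from 1.52 to 1.76.

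The correlation of deviations from the day means between same-numbered libraries averaged 0.00489 (−0.123 to 0.136, 105 pairs, 12301 entries), and 1 pair was over 0.1. Between libraries of different numbers and days it averaged −0.0012 (−0.166 to 0.160, 420 pairs), and 8 pairs were over 0.1. Of 35 libraries, 14 correlated best with their own number. The share expected by chance was not computed, so whether replicate numbers pair the libraries was not settled. With the replicate block, 5 of the 192 calls changed and the count of other-biotype entries lower on day 1 became 0. Depth limits PSMA5, with 2 to 57 counts per library, most.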
